A study of Caenorhabditis elegans with 24 samples.

Results

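The *hsp-16* genes of *C. elegans* encode small heat-shock proteins. The 6 listed genes, *hsp-16.1*, *hsp-16.11*, *hsp-16.2*, *hsp-16.41*, *hsp-16.48* and *hsp-16.49*, were taken by their WormBase symbols from the 46934 genes of the deposited table, and all 6 were found. RNA-sequencing had been performed on whole animals at day 1 of adulthood, about 800 of them pooled per library, and the deposited counts are reads per gene without normalization. There were 3 libraries for each of 8 conditions, heat-shocked and untreated animals of 4 genotypes. The *hsf-1FL* line overexpresses full-length *hsf-1* in neurons from the *rab-3* promoter, and the *hsf-1CTD* line overexpresses, from the same neuronal promoter, *hsf-1* that lacks the C-terminus. In *hsf-1(sy441)* the C-terminus is missing from the animal's own *hsf-1*, and N2 is the wild type. All animals were grown at 20 °C on bacteria with an empty RNAi vector, and the heat-shocked ones were held at 34 °C for 2 h and then at 20 °C for 1 h.

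Small heat-shock proteins of the α-crystallin family are chaperones that need no ATP and bind unfolding proteins to keep them from aggregating. Transcription of the *hsp-16* genes is off or very low in unstressed worms and is switched on by the transcription factor HSF-1, which binds heat-shock elements in their promoters, so *hsp-16* reporters are a common readout of the heat-shock response in *C. elegans*. The genes lie as divergent pairs that share a promoter region, and a duplication has left *hsp-16.1* with *hsp-16.11*, and *hsp-16.48* with *hsp-16.49*, as near-identical copies.

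Total counts per library ranged from 11215696 to 19794446, with a median of 14946351.5, so that 3 counts, taken as the floor here, corresponded to between 0.152 and 0.267 CPM (counts per 1000000 counts of the library, here of its total, and in the levels given below of its total scaled with TMM). The floors, and the intervals given with ratios of summed counts, cover counting error only. Intervals of log2(fold-change) values come from the edgeR fit described below, which includes the spread between libraries. After heat-shock the mean of *hsf-1* itself was 136 ± 24 CPM in the *hsf-1FL* line, 132 ± 20 CPM in the *hsf-1CTD* line and 87.2 ± 5.8 CPM in the *hsf-1(sy441)* mutant, against 129 ± 34 CPM in N2 (SD, n = 3 each), so whole-animal *hsf-1* counts did not set the neuronal lines apart from N2 and are no check of their labels. Markers of intestine, muscle, neurons and germline were present in all 24 libraries, and the 2 muscle markers (*myo-3* and *unc-54*) were highest in *hsf-1(sy441)* within each treatment. The sperm genes (31 *msp-* genes, 28 of them tested) differed between libraries, from 1.399 to 1417 CPM in sum. They were highest in library 3 of *hsf-1(sy441)* in both treatments. Library 1 of *hsf-1(sy441)*, at 21.5 CPM heat-shocked and 32.5 CPM untreated, lay below the lowest *hsf-1FL* library at 34.8 CPM.

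The 6 genes lie at 2 places on chromosome V of WBcel235. *hsp-16.2* (WBGene00002016, from 1804334 to 1804957, minus strand) and *hsp-16.41* (WBGene00002018, from 1805178 to 1805875, plus strand) point away from each other with 220 bases between them, and their exons cover 578 and 640 bases. A cluster of 4 genes that spans 3312 bases lies 7281417 bases away. In it, *hsp-16.1* (WBGene00002015, from 9087293 to 9087782, minus strand) and *hsp-16.48* (WBGene00002019, from 9088131 to 9088617, plus strand) point away from each other across 348 bases. The other divergent pair, *hsp-16.49* (WBGene00002020, from 9089280 to 9089766, minus strand) and *hsp-16.11* (WBGene00002017, from 9090077 to 9090604, plus strand), mirrors it across 310 bases. The exons of *hsp-16.48* and *hsp-16.49* have the same lengths, 138 and 294 bases, with an intron of 55 bases in each. The 312-base 3′ exon and the 52-base intron are likewise shared by *hsp-16.1* and *hsp-16.11*, whose 5′ exons have 126 and 164 bases. In release 115 of the annotation *hsp-16.11* carries the symbol *hsp-16.1*, and *hsp-16.49* that of *hsp-16.48*. The map of the loci gives the layout with the reads counted on each gene.

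**Figure D1:**
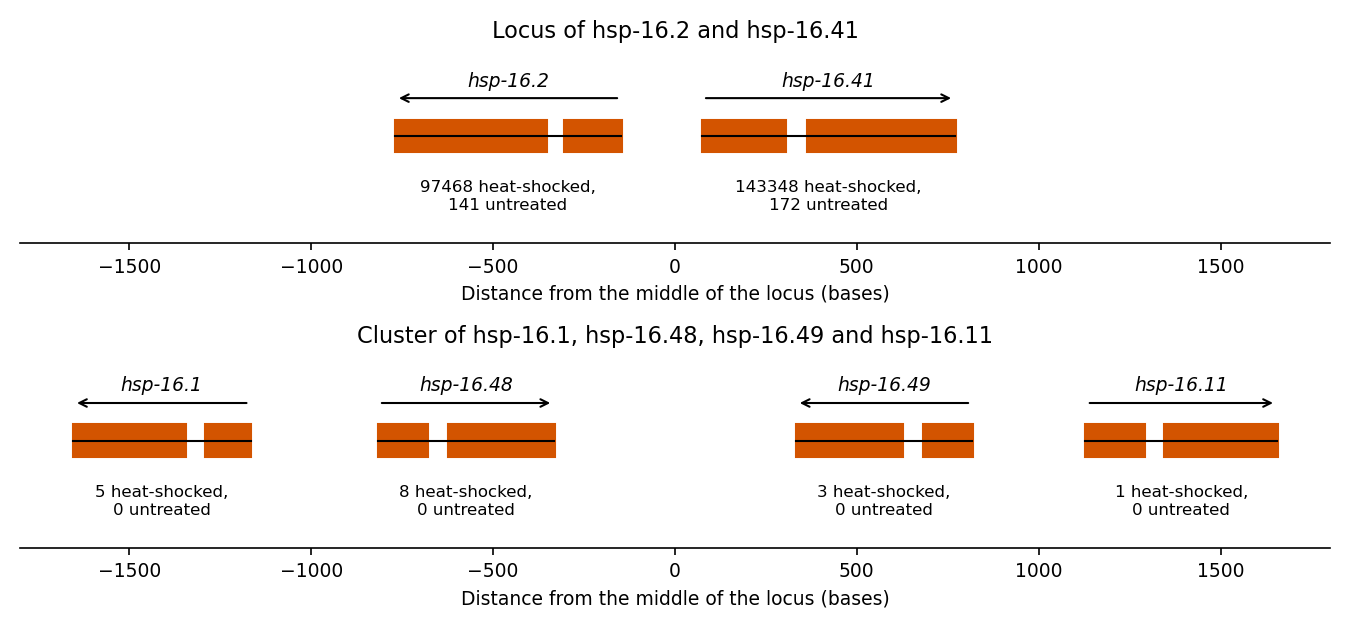
Map of the 2 *hsp-16* loci on chromosome V, drawn to scale as the distance in bases from the middle of each locus, with boxes for exons, lines for gene bodies, arrows for the direction of transcription, and below each gene its counts summed over 12 heat-shocked and 12 untreated libraries. *hsp-16.2* and *hsp-16.41* had 97468 and 143348 counts in heat-shocked libraries, whereas the 4 clustered genes had between 1 and 8.

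Nearly all reads on the 6 genes were counted on *hsp-16.2* and *hsp-16.41*. In heat-shocked libraries the 12 counts of *hsp-16.2* lay between 1680 and 13774, with a median of 8136.5, and in untreated libraries between 1 and 30, with a median of 11.5. Those of *hsp-16.41* lay between 2376 and 20503 in heat-shocked libraries, with a median of 11998.5, and between 0 and 27 in untreated libraries, with a median of 15. For neither gene did the 2 treatments overlap. Here and below, how many of all genes have groups that do not overlap was not counted. By contrast, the 4 clustered genes together had 17 counts over the 12 heat-shocked libraries and 0 counts over the 12 untreated libraries. None of them exceeded 3 counts in any library.

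**Figure D2:**
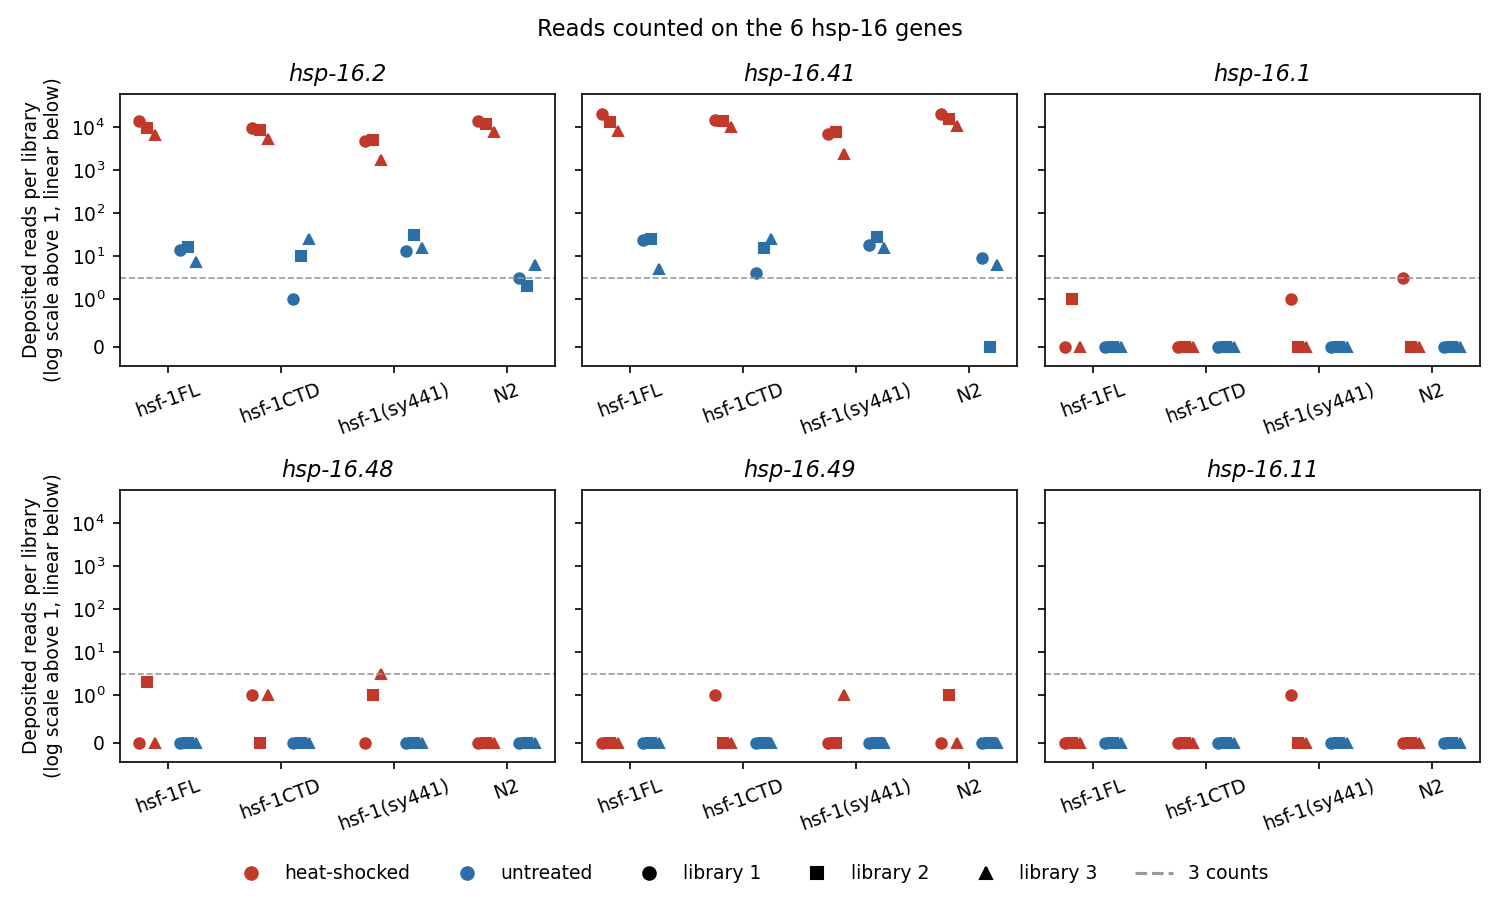
Counts of the 6 *hsp-16* genes in each library (vertical axis, reads per library, on a log scale above 1 and linear below), with heat-shocked libraries in red left of untreated libraries in blue for each genotype, marker shapes for the library number and a dashed line at 3 counts. *hsp-16.2* and *hsp-16.41* stood at 1680 or more in each heat-shocked library and at 30 or fewer in each untreated library, and the other 4 genes at 3 or fewer throughout.

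Together the 6 genes took 0.181 ± 0.066% of all counts in heat-shocked *hsf-1FL*, 0.169 ± 0.042% in *hsf-1CTD*, 0.0686 ± 0.037% in *hsf-1(sy441)* and 0.157 ± 0.047% in N2 (SD, n = 3 each). In untreated animals the shares were 2.0e-04% in *hsf-1FL*, 1.4e-04% in *hsf-1CTD*, 2.5e-04% in *hsf-1(sy441)* and 6.0e-05% in N2. Per kilobase of exon, the mean level of *hsp-16.41* after heat-shock ranked 50th in *hsf-1FL*, 44th in *hsf-1CTD*, 168th in *hsf-1(sy441)* and 69th in N2 among the 15256 genes that reached 10 counts in 3 or more libraries. On the same scale *hsp-16.2* ranked 84th, 88th, 215th and 101st in that order of genotypes. In untreated animals both genes ranked between 10284th and 12762nd.

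Heat-shock raised *hsp-16.2* and *hsp-16.41* in each of the 4 genotypes. A gene was called a DEG at an adjusted P-value under 0.01 by edgeR (quasi-likelihood F-test), adjusted over all 15256 tested genes by the Benjamini-Hochberg method. Of the 6 members 2 could be tested, and these 2 were upregulated DEGs in 4 of 4 genotypes. Over all genes tested, 0.819% were DEGs of either direction in *hsf-1FL* (0.498% upregulated), 0.964% in *hsf-1CTD* (0.61% upregulated), 1.72% in *hsf-1(sy441)* (1.21% upregulated) and 0.669% in N2 (0.537% upregulated). In these whole-animal samples, fewer cells that express a gene and less RNA per cell cannot be told apart.

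In *hsf-1FL*, *hsp-16.2* had 13594, 9394 and 6409 counts in the 3 heat-shocked libraries, against 14, 16 and 7 counts in the 3 untreated libraries. The log2(fold-change) was 9.78 (SE 0.62, edgeR adjusted P = 7.58e-09). Scaled by library size, the summed counts of the heat-shocked libraries were 911 times those of the untreated libraries (95% counting interval 660.4 to 1293). *hsp-16.41* had 20503, 13345 and 8189 counts in heat-shocked *hsf-1FL*, against 23, 25 and 5 counts in untreated *hsf-1FL*, a log2(fold-change) of 9.77 (SE 0.67, edgeR adjusted P = 2.07e-08). The heat-shocked and untreated libraries of this line did not overlap for either gene.

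In *hsf-1CTD*, whose transgene lacks the C-terminus, *hsp-16.2* had 9342, 8653 and 5307 counts in heat-shocked libraries, against 1, 10 and 24 counts in untreated libraries. The log2(fold-change) was 9.82 (SE 0.63, edgeR adjusted P = 7.69e-09), and the ratio of scaled summed counts was 948 (682 to 1362). The untreated counts of this gene were spread widely, with 1 count in library 1, and without untreated library 3 the log2(fold-change) was 10.65. *hsp-16.41* had 14825, 13489 and 9718 counts in heat-shocked *hsf-1CTD*, against 4, 15 and 25 counts in untreated *hsf-1CTD*, with a log2(fold-change) of 10.18 (SE 0.68, edgeR adjusted P = 1.45e-08).

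In *hsf-1(sy441)* both genes were also induced, to lower counts. *hsp-16.2* had 4675, 5059 and 1680 counts in heat-shocked libraries, against 13, 30 and 15 counts in untreated libraries, a log2(fold-change) of 7.83 (SE 0.57, edgeR adjusted P = 9.43e-08). *hsp-16.41* had 6993, 7671 and 2376 counts in heat-shocked *hsf-1(sy441)*, against 18, 27 and 15 counts in untreated *hsf-1(sy441)*, a log2(fold-change) of 8.36 (SE 0.64, edgeR adjusted P = 1.36e-07). Library 3 was the lowest of the heat-shocked libraries for both genes. The ratio of scaled summed counts was 224 (173 to 295) for *hsp-16.2* and 323 (251 to 423) for *hsp-16.41*. When only the 6 libraries of this comparison were fitted, the values stayed at 7.80 and 8.33, but the adjusted P-values were 0.0140 and 0.0137, and 0 of the 13560 genes tested were DEGs in that edgeR fit. DESeq2 on all 24 libraries called both genes (adjusted P = 1.58e-55 for each), among 747 called of 15237.

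In N2, *hsp-16.2* had 13774, 11961 and 7620 counts in heat-shocked libraries, against 3, 2 and 6 counts in untreated libraries. This gave a log2(fold-change) of 11.32 (SE 0.69, edgeR adjusted P = 3.78e-09) and a ratio of scaled summed counts of 2599 (1452 to 5207). The untreated wild type had the fewest reads of all conditions, and the interval is wide because its summed counts were only 11 for *hsp-16.2* and 15 for *hsp-16.41*. *hsp-16.41* had 20458, 15129 and 10652 counts in heat-shocked N2, against 9, 0 and 6 counts in untreated N2, a log2(fold-change) of 11.34 (SE 0.74, edgeR adjusted P = 9.37e-09). Without untreated library 1 of N2 this was 12.06, and without untreated library 2, the one at 0 counts, it was 10.75.

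By P-value, *hsp-16.2* was 3rd and *hsp-16.41* 4th of the 15256 genes in each of the 4 genotypes. By size of the increase, *hsp-16.2* was 3rd in *hsf-1FL*, 7th in *hsf-1CTD*, 11th in *hsf-1(sy441)* and 3rd in N2, and *hsp-16.41* was 4th, 3rd, 8th and 2nd in that order of genotypes. In the plot of fold changes these heat effects are on the left.

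**Figure D3:**
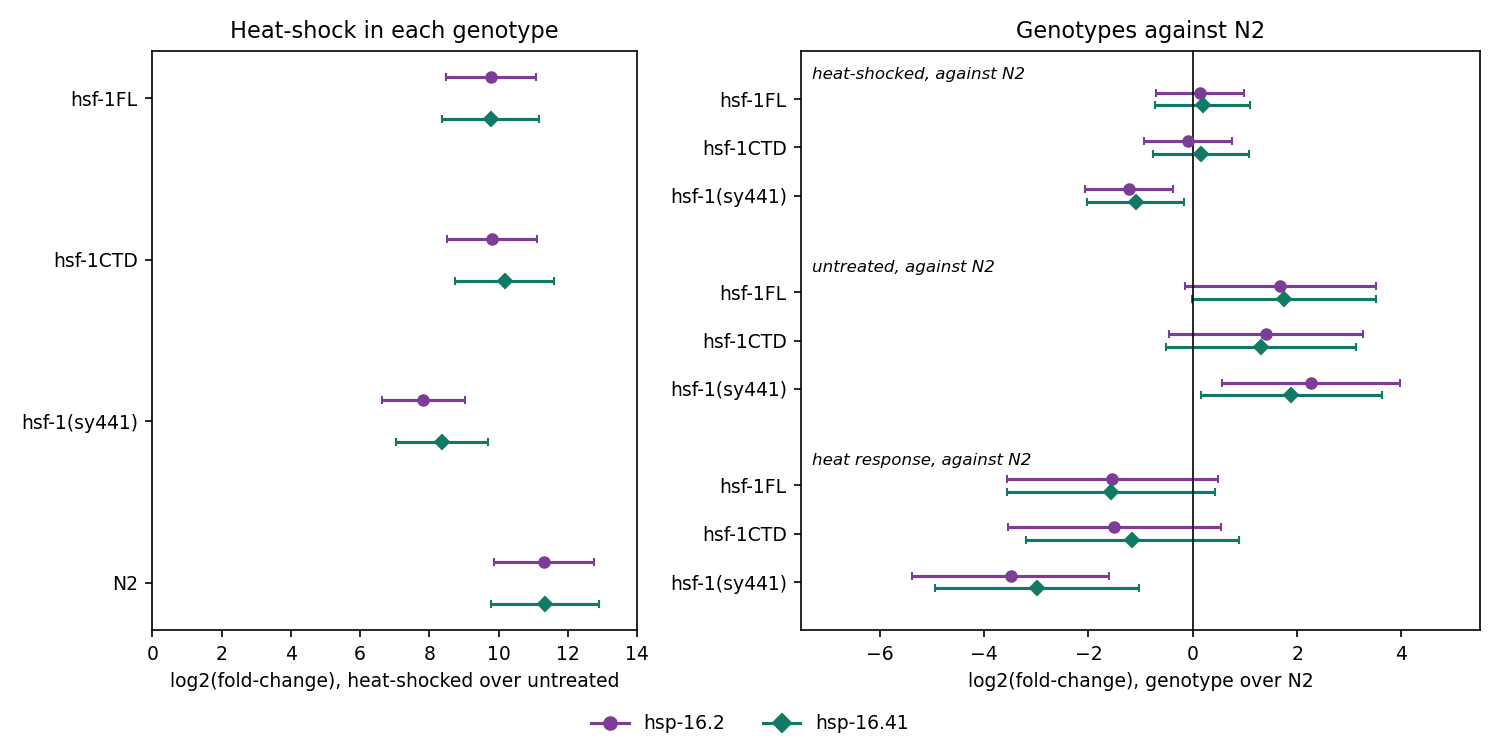
log2(fold-change) of *hsp-16.2* (circles) and *hsp-16.41* (diamonds) with 95% intervals from edgeR, on the left for heat-shocked over untreated animals of each genotype and on the right for each genotype over N2 in heat-shocked animals, in untreated animals and in the heat response. The heat effects lie between 7.83 and 11.34, and on the right the intervals of *hsf-1(sy441)* lie to one side of 0 in each of the 3 blocks while those of the neuronal lines include 0.

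The level reached after heat-shock was compared between genotypes in the same libraries. For *hsp-16.2* the 3 libraries had 882, 812 and 475 CPM in the *hsf-1FL* line, 774, 673 and 404 CPM in the *hsf-1CTD* line, and 309, 412 and 126 CPM in the *hsf-1(sy441)* mutant, against 697, 832 and 441 CPM in N2. Means were 723 ± 218 CPM with *hsf-1FL*, 617 ± 191 CPM with *hsf-1CTD*, and 282 ± 145 CPM with *hsf-1(sy441)*, against 657 ± 199 CPM in N2 (SD, n = 3 each). The libraries of *hsf-1FL* and *hsf-1CTD* overlapped those of N2, whereas the 3 *hsf-1(sy441)* libraries were all below the 3 of N2. The share of all tested genes that separate in this way was not counted, so this is a description only. *hsp-16.41* had 1329.9, 1154 and 607 CPM in the *hsf-1FL* line, 1228, 1048 and 740.1 CPM in the *hsf-1CTD* line, and 462, 625 and 178 CPM in the *hsf-1(sy441)* mutant, against 1035, 1053 and 617 CPM in N2. Its means were 1030.2 ± 377 CPM with *hsf-1FL*, 1005 ± 247 CPM with *hsf-1CTD* and 422 ± 226 CPM with *hsf-1(sy441)*, against 901 ± 247 CPM in N2. Here the highest *hsf-1(sy441)* library lay just above the lowest of N2, so these groups overlapped.

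**Figure D4:**
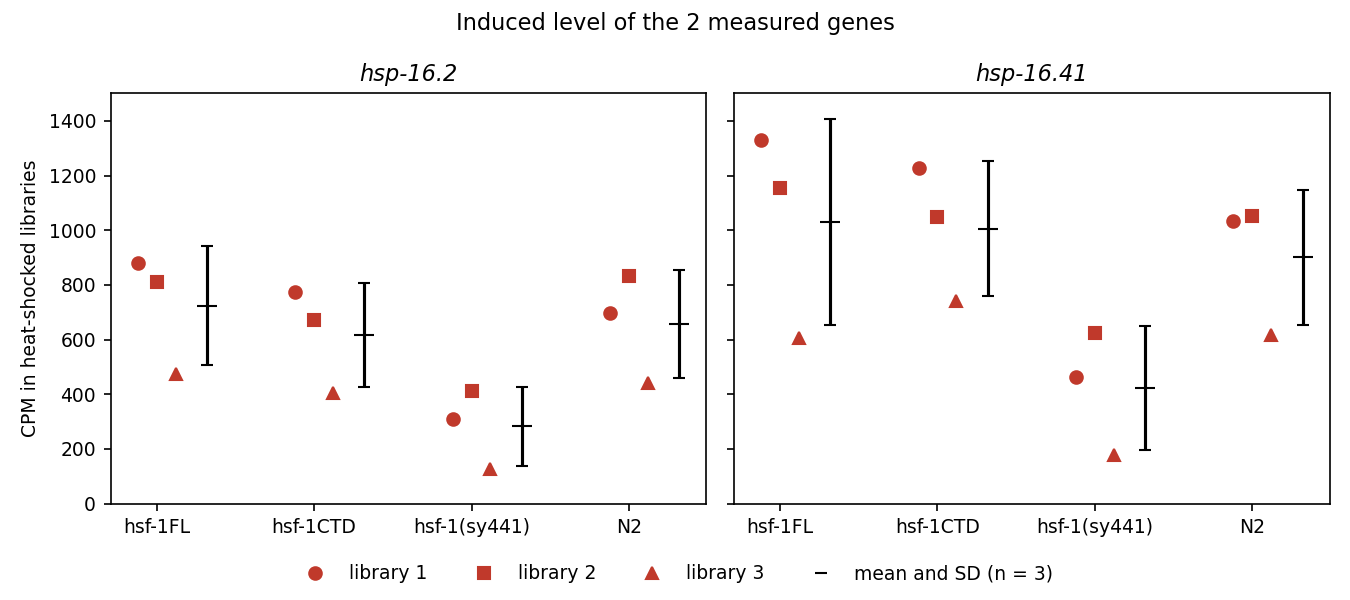
CPM of *hsp-16.2* and *hsp-16.41* in heat-shocked libraries of each genotype, with a marker for each of the 3 libraries and a bar for the mean and SD. *hsf-1(sy441)* has the lowest mean for both genes, 282 CPM for *hsp-16.2* and 422 CPM for *hsp-16.41*, and library 3 is the lowest of each genotype.

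No member was a DEG between heat-shocked genotypes by edgeR or by DESeq2. In *hsf-1FL* against N2, the log2(fold-change) was 0.14 (SE 0.40, 95% interval from -0.70 to 0.97) for *hsp-16.2* and 0.19 (SE 0.44, -0.72 to 1.10) for *hsp-16.41*, with 0 members at an unadjusted P-value under 0.05, and 0.0197% of all genes were DEGs. In *hsf-1CTD* against N2, it was -0.09 (-0.93 to 0.75) and 0.16 (-0.75 to 1.07), again with 0 members at an unadjusted P-value under 0.05, and 0.0131% of all genes were DEGs. In *hsf-1FL* against *hsf-1CTD*, it was 0.23 (-0.61 to 1.07) and 0.04 (-0.88 to 0.95), with 0.00655% of all genes DEGs. These intervals leave room for differences of up to about 1 on the log2 scale in either direction, so the neuronal lines were not shown to be alike or to differ from N2. The sperm genes summed to between 34.8 and 299 CPM in heat-shocked *hsf-1FL*, against between 2.78 and 12.34 CPM in heat-shocked N2. Their part in these values was not tested.

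For heat-shocked *hsf-1(sy441)* against N2, *hsp-16.2* had a log2(fold-change) of -1.22 (SE 0.41, edgeR adjusted P = 0.0718) and *hsp-16.41* one of -1.10 (SE 0.44, edgeR adjusted P = 0.129). Both had an unadjusted P-value under 0.05, as did 25.04% of all genes, and 0.891% of all genes were DEGs. In each of 3 same-numbered pairs of libraries *hsf-1(sy441)* was lower, at 0.444, 0.495 and 0.285 of the N2 level for *hsp-16.2* and at 0.447, 0.594 and 0.288 of it for *hsp-16.41*. Over all tested genes the deviations of these pairs correlated weakly (0.073, 0.193 and 0.101), so these ratios are a description and no paired test. Over the alternatives tried, the adjusted P-value of *hsp-16.2* ran from 0.0127 to 0.338 and that of *hsp-16.41* from 0.0365 to 0.442, and none passed the threshold of 0.01. The *hsf-1(sy441)* library with the least *hsp-16*, library 3, had a summed level of the 31 sperm genes of 1417 CPM, against 21.5 and 102 CPM in the other *hsf-1(sy441)* libraries, with 2 of the 31 genes at 0, and between 2.78 and 12.34 CPM in heat-shocked N2. Without it the difference from N2 was -0.88 (edgeR adjusted P = 0.296) for *hsp-16.2* and -0.74 (edgeR adjusted P = 0.442) for *hsp-16.41*. The 2 muscle markers summed to 3811, 4539 and 8718 CPM in heat-shocked *hsf-1(sy441)*, highest in the same library 3, against 3202, 2059 and 1669 CPM in heat-shocked N2. In this comparison edgeR called 0 of these markers and DESeq2 1, where DESeq2 called 1025 of 14351 genes. At an unadjusted P-value under 0.05 by edgeR there was 1 marker, and the part of these markers in the difference was not tested.

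Heat-shocked library 3 was the lowest of its 3 libraries for *hsp-16.2* and for *hsp-16.41* in *hsf-1FL*, *hsf-1CTD*, *hsf-1(sy441)* and N2. The highest was library 1 in *hsf-1FL* and *hsf-1CTD*, and library 2 in *hsf-1(sy441)* and N2. The highest heat-shocked library of a genotype had between 1.66 and 3.52 times the CPM of the lowest. In untreated *hsf-1CTD*, by contrast, library 3 had the most counts, 24 for *hsp-16.2* and 25 for *hsp-16.41*. The labels do not say what libraries of the same number share, and the part of the number in the genotype differences was not tested beyond the replicate block.

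Basal levels were close to the floor, and lowest in N2. Untreated *hsp-16.2* had 0.978, 1.01 and 0.460 CPM in the *hsf-1FL* line, 0.0722, 0.657 and 1.14 CPM in the *hsf-1CTD* line, and 0.867, 1.93 and 0.907 CPM in the *hsf-1(sy441)* mutant, against 0.205, 0.133 and 0.413 CPM in N2. The 3 libraries of *hsf-1(sy441)* and the 3 of *hsf-1FL* were all above those of N2, and those of *hsf-1CTD* overlapped them. Untreated *hsp-16.41* had 1.61, 1.57 and 0.329 CPM in the *hsf-1FL* line, 0.289, 0.986 and 1.19 CPM in the *hsf-1CTD* line, and 1.20, 1.74 and 0.907 CPM in the *hsf-1(sy441)* mutant, against 0.615, 0 and 0.413 CPM in N2. For this gene only *hsf-1(sy441)* was clear of N2 in all libraries, and the N2 library at 0 counts allows up to 3 counts. For neither gene was the share of all tested genes that separate in this way counted.

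**Figure D5:**
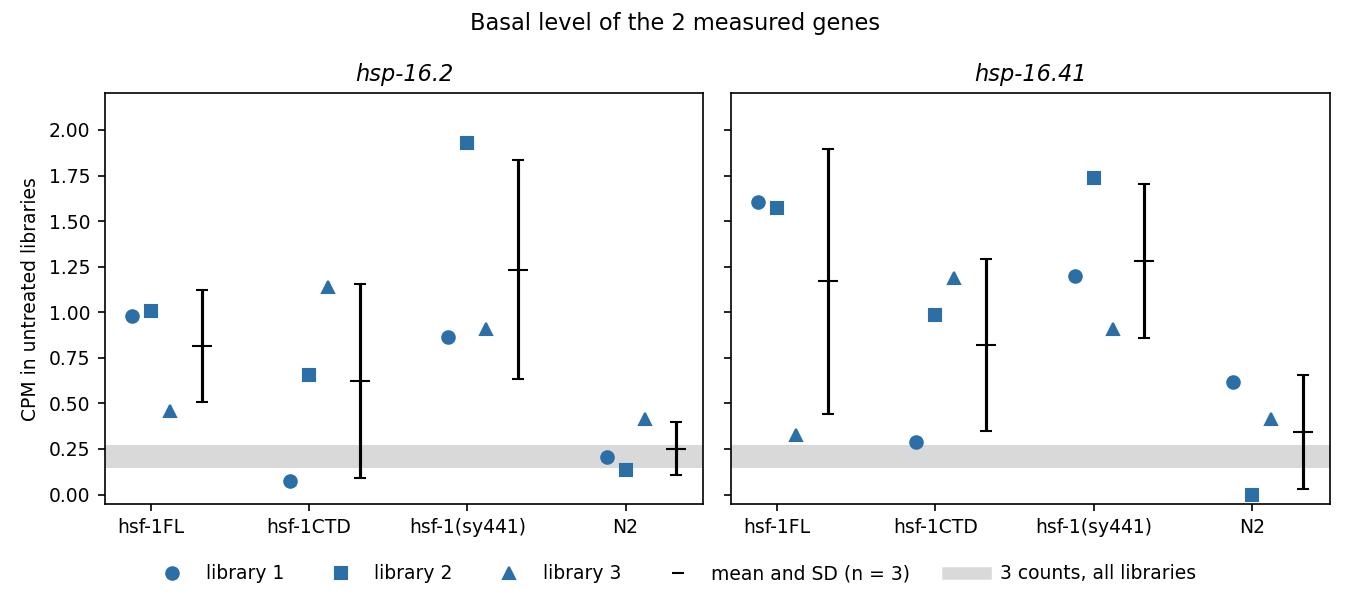
CPM of *hsp-16.2* and *hsp-16.41* in untreated libraries of each genotype, with a marker for each of the 3 libraries, a bar for the mean and SD, and a grey band for the level of 3 counts over all libraries. N2 has the lowest mean for both genes, 0.250 and 0.343 CPM, and *hsf-1(sy441)* the highest, 1.23 and 1.28 CPM.

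Untreated *hsf-1(sy441)* had a log2(fold-change) over N2 of 2.27 (SE 0.82, edgeR adjusted P = 0.0771) for *hsp-16.2* and 1.89 (SE 0.83, edgeR adjusted P = 0.135) for *hsp-16.41*. Both had an unadjusted P-value under 0.05, as did 29.6% of all genes, and neither was a DEG, while 0.61% of all genes were. Of the members DESeq2 called *hsp-16.2* alone (2.35, adjusted P = 0.00510), and *hsp-16.41* had an adjusted P-value of 0.0202 there. Over all genes, DESeq2 called 1126 of 14351 in this comparison. The sperm genes in these libraries summed to 32.5, 366 and 1146 CPM in untreated *hsf-1(sy441)*, and to 420, 111 and 46.9 CPM in untreated *hsf-1FL*, against between 1.46 and 9.71 CPM in untreated N2. The muscle markers summed to between 2838 and 5215 CPM in untreated *hsf-1(sy441)*, against between 1217 and 1815 CPM in untreated N2. The part of either in the differences was not tested. In untreated *hsf-1FL* the log2(fold-change) over N2 was 1.68 (95% interval from -0.15 to 3.51) for *hsp-16.2* and 1.76 (-0.01 to 3.52) for *hsp-16.41*, with 0.0197% of all genes DEGs. In untreated *hsf-1CTD* it was 1.41 (-0.45 to 3.27) and 1.31 (-0.51 to 3.14), likewise with 0.0197% of all genes DEGs, and between the neuronal lines it was 0.27 and 0.44, with 0.00655%. In these 3 comparisons 0 members were at an unadjusted P-value under 0.05 and 0 were called by edgeR or DESeq2. Single libraries moved these values. Without untreated library 1 of N2, *hsp-16.41* was above N2 by 2.61 in *hsf-1(sy441)*, 2.48 in *hsf-1FL* and 2.04 in *hsf-1CTD*, and without untreated library 2 of N2 by 1.30, 1.17 and 0.73 in that order. Without untreated library 3 of *hsf-1CTD*, *hsp-16.2* of that line was above N2 by 0.58.

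The heat response of each genotype was set against that of N2 as an interaction in the same model. For *hsf-1(sy441)* the response was smaller by a log2 difference of -3.49 for *hsp-16.2* (SE 0.90, unadjusted P = 9.90e-04, edgeR adjusted P = 0.961) and of -2.98 for *hsp-16.41* (SE 0.93, unadjusted P = 0.00463, edgeR adjusted P = 1.00). Over all 15256 genes *hsp-16.2* ranked 15th and *hsp-16.41* 52nd by P-value, and 0% of the genes were DEGs. At an unadjusted P-value under 0.05 there were 3.26% of the genes. With DESeq2 the adjusted P-values were 0.0129 and 0.114, with 0 members called. The difference of *hsp-16.41* was -3.70 without untreated library 1 of N2 and -2.39 without untreated library 2 of N2. Both sides of the response contributed to this number, with heat-shocked levels lower than in N2 by 1.22 and untreated levels higher by 2.27 on the log2 scale for *hsp-16.2*. For *hsf-1FL* the differences in response were -1.54 (95% interval from -3.56 to 0.48) and -1.56 (-3.56 to 0.43), and for *hsf-1CTD* the 95% intervals ran from -3.54 to 0.54 for *hsp-16.2* and from -3.20 to 0.89 for *hsp-16.41*. In both lines 0% of the genes were DEGs, with 0 members at an unadjusted P-value under 0.05. With each library left out in turn, the differences ran from -2.08 to -1.24 and from -2.29 to -0.98 in *hsf-1FL*, and from -2.03 to -0.67 and from -1.88 to -0.57 in *hsf-1CTD*. All 3 interactions share the N2 libraries, whose untreated counts were the lowest.

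The divergent neighbours *hsp-16.2* and *hsp-16.41* kept a narrow ratio after heat-shock. Per base of exon, the counts of *hsp-16.41* over those of *hsp-16.2* ranged from 1.14 to 1.65 over the 12 heat-shocked libraries, with a median of 1.35. The mean ratio was 1.27 ± 0.11 in *hsf-1FL*, 1.498 ± 0.14 in *hsf-1CTD*, 1.33 ± 0.049 in *hsf-1(sy441)* and 1.25 ± 0.10 in N2 (SD, n = 3 each). The 3 ratios of *hsf-1CTD*, from 1.41 to 1.65, lay above those of the other genotypes, of which the highest was 1.37, and no test was run on this. In untreated libraries the ratio ran from 0 to 3.61 on counts of 30 or fewer, and no difference between genotypes can be read from it.

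The 4 clustered genes had next to no reads. In heat-shocked libraries the sums over 12 libraries were 5 counts for *hsp-16.1*, 1 for *hsp-16.11*, 8 for *hsp-16.48* and 3 for *hsp-16.49*, against 0 for each in untreated libraries. Of the 48 values of these genes in heat-shocked libraries 12 were above 0, and of the 48 values in untreated libraries 0 were above 0. The highest value, 3 counts, was reached by *hsp-16.1* in library 1 of N2 and by *hsp-16.48* in library 3 of *hsf-1(sy441)*. All groups were at or under 3 counts per library, so no fold is given, and none of the 4 genes entered the test. With no filter beyond 1 count, edgeR tested all 6 genes, and these 4 were called in 0 of the 15 comparisons. Summing each pair of copies into 1 feature did not bring either pair to the 10 counts that the test needs.

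Counts near 0 were also found for other gene IDs that share a symbol. In the release 115 annotation, 201 other protein-coding gene IDs share a symbol with at least 1 further ID, under 95 symbols. Of these IDs, 6 (2.99%) had enough counts to be tested, against 72.8% of all 19984 protein-coding IDs. No library had more than 3 counts for 183 of them (91.0%), against 12.57% of all protein-coding IDs. Of the 176 IDs whose partners have the same exonic length, 93.2% had at most 3 counts in each library. How reads that map to several genes were counted is not given in the sources used here, and whether reads of the 4 clustered genes were left out in the counting was not tested. Whether the other IDs that share a symbol are transcribed in these animals was not tested either. The counts of the 4 clustered genes were not read here as a measure of their transcription. The shares and sums above hold what was counted on *hsp-16.2* and *hsp-16.41*.

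Few small heat-shock genes outside the *hsp-16* group were DEGs. Of 12 other α-crystallin genes, all tested, 1 was upregulated in *hsf-1FL*, 1 in *hsf-1CTD*, 0 in *hsf-1(sy441)* and 0 in N2 by edgeR. Over all genes tested, 0.498%, 0.61%, 1.21% and 0.537% were upregulated by edgeR in that order. The median log2(fold-change) values of the list lay between 0.33 and 0.48. At an unadjusted P-value under 0.05 there were 5, 4, 2 and 5 in that order of genotypes, against 14.7%, 16.6%, 19.3% and 12.19% of all genes. DESeq2 called 2, 2, 1 and 3 of the list, all upregulated. Upregulated over all genes by DESeq2 were 270 of 14645, 347 of 13762, 470 of 15237 and 260 of 14941. The gene of the list called by edgeR in both neuronal lines was *hsp-12.6*, a small heat-shock gene known as a target of DAF-16. It had 21.8 ± 7.5 CPM in heat-shocked and 0.463 ± 0.11 CPM in untreated *hsf-1FL*. Its log2(fold-change) was 5.53 (SE 1.08, edgeR adjusted P = 0.00792) in *hsf-1FL* and 5.21 (SE 1.03, edgeR adjusted P = 0.00782) in *hsf-1CTD*. In *hsf-1(sy441)* it was 4.52 (edgeR adjusted P = 0.0130) and in N2 4.44 (edgeR adjusted P = 0.0195). Some members that were not DEGs had large values. *F08H9.4* was at 3.91 in *hsf-1FL*, 4.86 in *hsf-1CTD*, -0.46 in *hsf-1(sy441)* and 4.90 in N2 (SE between 1.28 and 1.54), the largest of the list in N2, from a mean of 2.44 CPM or less in each condition. *hsp-17* averaged 147 ± 105 CPM in heat-shocked and 20.3 ± 4.2 CPM in untreated *hsf-1FL* (2.85, SE 0.70, edgeR adjusted P = 0.0299).

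Of 12 cytosolic heat-shock response genes, all tested, 4 were upregulated in *hsf-1FL*, 4 in *hsf-1CTD*, 3 in *hsf-1(sy441)* and 3 in N2 by edgeR. Over all genes tested, 0.498%, 0.61%, 1.21% and 0.537% were upregulated by edgeR in that order. Over all genes, DESeq2 called 270 of 14645, 347 of 13762, 470 of 15237 and 260 of 14941 upregulated in that order of genotypes. In the list it called 10, 11, 3 and 7, all upregulated. At an unadjusted P-value under 0.05 by edgeR there were 12, 12, 6 and 11 of the list, against 14.7%, 16.6%, 19.3% and 12.19% of all genes. The median log2(fold-change) was 0.87, 0.83, 0.39 and 0.80, and the difference between genotypes in these counts was not tested. The 3 called by edgeR in each genotype were *hsp-70*, the inducible Hsp70, and *F44E5.4* and *F44E5.5*, a neighbouring pair of Hsp70 genes whose near-identity makes their separate counts uncertain. *hsp-70* averaged 874 ± 128 CPM in heat-shocked and 1.66 ± 0.35 CPM in untreated *hsf-1FL*, a log2(fold-change) of 9.04 (SE 0.53). In *hsf-1(sy441)* *hsp-70* averaged 751 ± 321 CPM in heat-shocked and 7.76 ± 1.8 CPM in untreated animals, and its log2(fold-change) there was 6.59 (SE 0.46). Untreated *hsf-1(sy441)* had more *hsp-70* than untreated N2 by 3.55 (SE 0.51, edgeR adjusted P = 7.14e-04) on the log2 scale. In heat-shocked *hsf-1(sy441)* against N2, DESeq2 called 1025 of 14351 genes, 834 of them upregulated. Of the 12 listed genes it called 6 as downregulated. By edgeR 4 of the 12 were downregulated there (over all genes tested, 0.21% were). The 4 were *hsp-90* at -1.16 (edgeR adjusted P = 0.00200), its co-chaperone *sti-1* at -1.13 (edgeR adjusted P = 0.00191), *dnj-13* at -1.10 (edgeR adjusted P = 0.00543) and the myosin chaperone *unc-45* at -0.44 (edgeR adjusted P = 0.00398). *hsp-70* itself was at -0.42 (edgeR adjusted P = 0.498) in that comparison.

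Of 7 regulators of *hsp-16* transcription (*hsf-1*, its binding partners *hsb-1*, *ddl-1* and *ddl-2*, and *daf-16*, *sir-2.1* and *hpk-1*), 0 were DEGs on heat-shock in any genotype by edgeR or DESeq2. At an unadjusted P-value under 0.05 by edgeR there were 0 in *hsf-1FL*, 1 in *hsf-1CTD*, 2 in *hsf-1(sy441)* and 2 in N2. The shares of all genes were 14.7%, 16.6%, 19.3% and 12.19% in that order. Their log2(fold-change) values ran from -0.56 to 0.80 over the 4 genotypes. In *hsf-1(sy441)* against N2, edgeR called 0 of the 7 in either treatment and DESeq2 called 1 as downregulated in each. DESeq2 called 1025 of 14351 genes there in heat-shocked animals and 1126 of 14351 in untreated animals. At an unadjusted P-value under 0.05 by edgeR there were 3 of the 7 in each, against 25.04% and 29.6% of all genes. Their lowest values were -0.91 heat-shocked and -0.87 untreated.

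The tested genes whose profiles over the 8 condition means came nearest to the mean profile of the 2 tested members were *hsp-70*, *rpr-1*, WBGene00013155, WBGene00012618 and *Y38H6C.8*. The root mean square distance, in log2 CPM after centring each gene, was 0.72 for *hsp-70*, 1.34 for *rpr-1*, an annotated noncoding RNA, 1.47 and 1.51 for the pseudogenes WBGene00013155 and WBGene00012618, and 1.73 for the protein-coding *Y38H6C.8*, against 0.11 for each member. *rpr-1* had 39.0, 39.6 and 15.4 CPM in heat-shocked *hsf-1FL*, against 0 CPM in the 3 untreated libraries, and like both *hsp-16* genes it was lowest in heat-shocked library 3 of each genotype. WBGene00012618 had 9.32, 11.0 and 5.61 CPM in heat-shocked *hsf-1(sy441)*, against 92.7, 60.7 and 23.1 CPM in heat-shocked N2.

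Few genes beside the *hsp-16* loci could be tested, and none of those tested was a DEG. In the table, 12 other genes lie within 5 kb of a member, 2 of which had enough counts to be tested, *srt-42* (a chemoreceptor gene that begins 1584 bases past the 3′ end of *hsp-16.41* on the same strand) and *T27E4.1* (1740 bases past that of *hsp-16.11*, also on the same strand). On heat-shock 0 of the 2 were DEGs in any genotype by edgeR or DESeq2. At an unadjusted P-value under 0.05 by edgeR there were 1, 2, 0 and 1 in *hsf-1FL*, *hsf-1CTD*, *hsf-1(sy441)* and N2. The shares of all genes were 14.7%, 16.6%, 19.3% and 12.19% in that order. The log2(fold-change) values of these 2, the lower first, were 0.64 and 2.91 in *hsf-1FL* and 2.02 and 3.60 in *hsf-1CTD*. They were 0.53 and 1.94 in *hsf-1(sy441)* and 1.21 and 3.43 in N2, so a rise with heat-shock was not excluded. The 10 that were not tested included *srt-41*, *Y46H3A.4*, *F36H9.10* and small noncoding RNA genes of the cluster.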

How the data were processed

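The authors trimmed single-end reads of 100 bases with Trim Galore 0.6.7-1, aligned them to WBcel235 with STAR 2.7.10a and counted them per gene with featureCounts of Subread 2.0.3 on annotation release 107. The deposited values are raw counts. The strand setting and the handling of multi-mapping reads are not given in the sources used here. Members were matched by symbol and by position in the RefSeq table (WBcel235), since release 115 gives 4 of them a symbol shared by 2 gene IDs. The deposited table also holds a gene length column, which in the authors' counting is the number of exonic bases.

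Counts were fitted with edgeR 4.0.16 (R 4.3.3, limma 3.58.1), with TMM factors between 0.896 and 1.10, a mean for each of the 8 conditions over all 24 libraries, and a filter of at least 10 counts in at least 3 libraries. The quasi-likelihood F-test was used with Benjamini-Hochberg adjustment over 15256 genes and a threshold of 0.01. CPM are counts scaled by the TMM library size. The fit was tested on simulated data, in which 88% of genes changed by 5 on the log2 scale between heat-shocked and untreated N2 were called (15256 genes in the step). The genotype differences of the members were smaller than this change, and the share does not say how often such differences are called. Changes of 2 on the log2 scale were simulated as well, and the share of those called is not given here. Genotype differences that were not called are therefore no evidence that the genotypes are alike. Replicates of a condition were compared, and no 2 were copies (chi-square per degree of freedom between 9.28 and 178 over 24 pairs). Alternatives were DESeq2 1.42.0, RLE scaling, library size only, other filters, replicate blocks, 3 surrogate variables (sva 3.50.0), only the libraries compared, summed copies, an adjusted P-value under 0.05, a prior count of 2 and leaving out each library. Counting ratios, tables and figures used Python 3.11.15 with scipy 1.17.1, pandas 2.3.3, numpy 2.4.6 and matplotlib 3.10.9.

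Same-numbered libraries deviated together, with each correlation over 0.1, in 8 of 12 comparisons. The exceptions were *hsf-1CTD* heat-shocked against untreated, *hsf-1CTD* against N2 untreated, and *hsf-1(sy441)* against N2 in both treatments. The number was fitted only as an alternative. The genes named are the 6 members, genes of fixed lists called in every genotype, all genes within 5 kb and the 5 nearest profiles. In addition, *hsp-12.6*, *F08H9.4*, *hsp-17*, *hsp-90*, *sti-1*, *dnj-13* and *unc-45* were named after their values had been seen. The members and lists were chosen with earlier results of these data known.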

Additional observations from a re-analysis of the deposited data

How the results depend on the processing

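The 2 tested members, *hsp-16.2* and *hsp-16.41*, rose as DEGs on heat-shock in *hsf-1FL*, *hsf-1CTD* and N2 under each alternative that could test them, and in *hsf-1(sy441)* under each but 1. A fit of only the 6 *hsf-1(sy441)* libraries called 0 members, at 7.80 and 8.33 with adjusted P-values of 0.0140 and 0.0137, where 0 genes of any kind were called. For untreated *hsf-1(sy441)* against N2, DESeq2 called 1 member (*hsp-16.2*, 2.35, adjusted P = 0.00510) where edgeR called 0. Over all genes, DESeq2 called 1126 of 14351 there. Leaving out each library in turn left 2 members called in each heat-shock comparison and 0 in all others. Directions turned only where the value was near 0. Over the libraries left out, *hsp-16.2* ran from -0.080 to 0.37 and *hsp-16.41* from -0.029 to 0.46 in heat-shocked *hsf-1FL* against N2, from -0.31 to 0.12 and from -0.054 to 0.31 in *hsf-1CTD* against N2, and from -0.013 to 0.46 and from -0.19 to 0.30 in *hsf-1FL* against *hsf-1CTD*. In untreated *hsf-1FL* against *hsf-1CTD*, *hsp-16.2* ran from -0.16 to 1.10. With the replicate block as an additive term, *hsp-16.41* in heat-shocked *hsf-1FL* against *hsf-1CTD* was at -0.013, and neither that block nor the block within each genotype changed the call of a member. With the additive block, heat-shocked *hsf-1(sy441)* against N2 had adjusted P-values of 0.0260 for *hsp-16.2* and 0.0434 for *hsp-16.41*. The cause of these changes was not tested. A filter of 10 counts in every library left no member to test, and in the fits of only untreated *hsf-1FL* or *hsf-1CTD* with N2 the members fell below the filter. The count of windows of 100 bases that occur once in the genome was not run here. Depth limits the untreated values, which rest on 30 or fewer counts a library, and the 4 clustered genes, at 3 or fewer.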

Other observations

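The 2 tested neighbours were highest in heat-shocked library 3 of each genotype, the library with the least *hsp-16.2* and *hsp-16.41*. *srt-42* had 0.389, 0.346 and 3.41 CPM in the heat-shocked *hsf-1FL* line, 0.828, 0.233 and 2.06 CPM in the *hsf-1CTD* line, 0, 0.0815 and 0.299 CPM in the *hsf-1(sy441)* mutant, and 0.506, 0.626 and 2.78 CPM in N2. *T27E4.1* had 0.649, 0.432 and 3.33 CPM in the heat-shocked *hsf-1FL* line, 0.911, 0.855 and 7.69 CPM in the *hsf-1CTD* line, 1.32, 0.652 and 7.93 CPM in the *hsf-1(sy441)* mutant, and 1.26, 0.765 and 3.47 CPM in N2. The *srt-42* values of *hsf-1(sy441)* lay under or near the floor of 3 counts, so their order is uncertain. In untreated libraries *T27E4.1* stayed between 0.450 and 1.20 CPM. Both genes lie downstream of an *hsp-16* gene on its strand, *srt-42* of *hsp-16.41* and *T27E4.1* of *hsp-16.11*. *T27E4.1* is thus at the cluster and not at the locus of *hsp-16.2* and *hsp-16.41*, and a link between these levels was not tested. What heat-shocked library 3 shares across genotypes is not given in the labels.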
